A study of Caenorhabditis elegans with 2 samples.

Results

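In the chromatin of Caenorhabditis elegans larvae immunoprecipitated for NHR-84, 323 regions ranked among the strongest 3000 of 30000 in both of 2 biological replicates. A region of replicate 1 was kept when it ranked 1 to 3000 by the peak caller's signal and its summit lay within 100 bp of a replicate 2 summit that also ranked 1 to 3000. Of the 323 regions, 88 also stand in the shorter list the authors made with the irreproducible discovery rate (IDR), and 235 do not. These are called listed and unlisted strong regions here. The remaining 2677 regions among the first 3000 of replicate 1, and likewise 2677 of replicate 2, had no such partner and serve for comparison. They are called strong in 1 replicate only by this rule. Of those of replicate 1, 95 had a strong replicate 2 summit between 100 and 200 bp away, and some regions of both groups lie at IDR peaks. Both replicates came from whole L1 larvae of strain OP357, of mixed sex and with the genotype unc-119(tm4063) III; wgIs357. The integrated transgene expresses NHR-84 with a GFP-FLAG tag at its C-terminus. There was 1 group and no other genotype or stage, a control library was not analysed here, and the lists hold no read counts, so depth is unknown. With whole animals, strong binding in few cells and weaker binding in many cannot be told apart. The members were selected on their signal, so their ranks and signals are given as a description with no test.

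Nuclear hormone receptors are transcription factors that bind short DNA elements, many of them copies of a hexamer such as AGGTCA, through a zinc-finger domain. C. elegans has a much enlarged family of them, and most members have no known ligand. ChIP-seq lists where DNA attached to the tagged protein piles up. The IDR step is meant to compare the ranks of regions between replicates and keep those placed alike. Of the peaks in the IDR list here, 18 had no region strong in both replicates with its summit within 100 bp. For 3 of these the match in replicate 1 ranked beyond 3000, and for 4 that in replicate 2 did. Being listed therefore does not by itself mean a like rank in both. Strong ChIP signal in whole worms is known to gather for many factors at the promoters of highly used genes.

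The 3 unlisted strong regions with the best rank in both replicates lay upstream of nhr-17, ipp-5 and tag-340. The replicate 1 summit with 50 bases on either side, on the plus strand of RefSeq WBcel235 (the same assembly as ce11), is shown for each because no region outside the IDR list had a better rank in its weaker replicate. The nhr-17 sequence (chrX:12668352-12668452) is rich in A and T, with 23.8% G or C and 52.5% of its bases soft-masked as repeats in the reference. The ipp-5 sequence (chrX:6030526-6030626) holds 40.6% G or C and the tag-340 sequence (chrIII:4899807-4899907) 52.5%, with 31.7% and 0% of bases soft-masked. The 3 sequences therefore differ widely in composition.
nhr-17: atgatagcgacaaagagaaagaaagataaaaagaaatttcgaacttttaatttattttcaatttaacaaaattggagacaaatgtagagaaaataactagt
ipp-5: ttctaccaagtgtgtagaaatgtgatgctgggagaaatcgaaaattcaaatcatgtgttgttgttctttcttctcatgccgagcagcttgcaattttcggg
tag-340: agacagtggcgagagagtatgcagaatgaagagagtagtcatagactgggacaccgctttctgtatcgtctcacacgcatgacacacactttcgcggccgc

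The word GAGAGA lay within 100 bp of the summit of 61 of 235 unlisted strong regions (25.96%, Wilson 95% interval 20.8% to 31.9%) and 25 of 88 listed ones (28.4%, 20.04% to 38.6%). It was found at 16.5% of the regions strong in replicate 1 only, 16.8% of those strong in replicate 2 only, and 12.4% of all 30000 replicate 1 regions. Both strands were searched, and the intervals here and throughout cover counting error over regions only. At coding promoters the word stood in 32.5% of unlisted and 36.7% of listed strong regions, against 18.2% of promoter regions strong in replicate 1 only. Away from promoters the shares were 22.6%, 17.9% and 16.01%. The 4 best-placed examples among unlisted promoter regions follow, with GAGAGA in capitals and 20 bases on either side, read 5′ to 3′ on the strand that carries the word. They lie upstream of ecps-1 (chrIII:10460713-10460758, minus strand), ret-1, which encodes a reticulon of the endoplasmic reticulum (chrV:14847486-14847531, minus), the kinesin-like gene klp-13 (chrX:5984689-5984734, minus) and T13F3.8 (chrV:16269686-16269731, plus).
ecps-1: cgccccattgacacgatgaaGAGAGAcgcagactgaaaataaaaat
ret-1: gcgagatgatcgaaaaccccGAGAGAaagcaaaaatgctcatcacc
klp-13: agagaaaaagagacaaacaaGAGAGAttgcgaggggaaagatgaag
T13F3.8: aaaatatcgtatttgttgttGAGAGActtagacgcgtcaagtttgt

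A few listed strong regions hold a longer word that also begins with GAGA. GAGACGCAGA was the most frequent 10-base word within 100 bp of their summits, in 7 of 88 (7.95%), a share that the choice of the word fixes. In regions not used to choose it, the word stood in 8 of 235 unlisted strong regions (3.40%, 1.73% to 6.57%) and 1.76% of regions strong in replicate 1 only (1.32% to 2.33%). The share of all replicate 1 regions, which include the listed ones, was 0.987%. The unlisted interval overlaps that of the regions strong in replicate 1 only. Of the listed strong regions that carry it, 4 are shown with the word in capitals, all on the plus strand, at chrV:6224748-6224777 (nearest to W06H8.6), chrIII:8658590-8658619 (F22B7.9), chrII:9937753-9937782 (C05C10.3) and chrV:10897343-10897372 (sec-61.G, which encodes a subunit of the Sec61 translocon). Below them stand 2 unlisted regions, at ecps-1 (chrIII:10460718-10460747, minus) and cebp-1, a bZIP transcription factor gene (chrX:1454595-1454624, minus). Both carry the whole word, though only its leading 8 bases are in capitals. The ecps-1 site overlaps the GAGAGA shown for that region earlier.
W06H8.6: tagagagacgGAGACGCAGAcaccaacttt
F22B7.9: atgacgagaaGAGACGCAGAacattcaatc
C05C10.3: actttttataGAGACGCAGAcagaaaatca
sec-61.G: gtggaaacgaGAGACGCAGAcgtccaagag
ecps-1: cacgatgaagaGAGACGCAgactgaaaata
cebp-1: tgcagcgggaaGAGACGCAgaggcggcgtt

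A word chosen from the listed regions on X was not found in the 38 unlisted ones, which are too few to show a shortage of it. CCCTGCGCGA lies inside a motif known from recruitment sites of the worm's dosage compensation complex, which binds X in hermaphrodites and lowers its transcription. It was chosen as the most frequent 10-base word of the listed strong regions on X, where it stood in 6 of 17. The whole replicate 1 list held 8 regions with this word, all among its 5308 regions on X (0.151%). Of those 8, 6 were listed strong regions. The word was found at 0 of 38 unlisted strong regions on X, which allows a share of up to 7.89%. That limit is above the 0.151%, so no shortage can be read from it. The word stood at 0 of 445 X regions strong in replicate 1 only (up to 0.674%) and at 3 of 415 X regions strong in replicate 2 only (0.723%). The 6 sites are shown with the word in capitals, 10 bases either side, at chrX:11094216-11094245 (nearest to W02H3.3, plus), chrX:806662-806691 (gtr-1, minus), chrX:1345044-1345073 (the insulin-like gene ins-39, minus), chrX:8036423-8036452 (xol-1, the switch gene of sex determination, minus), chrX:2997113-2997142 (Y41G9A.17, plus) and chrX:16682162-16682191 (F22H10.2, plus).
W02H3.3: agtgaggtgtCCCTGCGCGAatggttccct
gtr-1: caacaaacacCCCTGCGCGAtaatcgcaca
ins-39: ggctcagctgCCCTGCGCGAatgacattgt
xol-1: tcgaagggttCCCTGCGCGAtggaaaaatc
Y41G9A.17: gctacttcctCCCTGCGCGAtaaatttaaa
F22H10.2: atttgatgttCCCTGCGCGAtgttttcttg

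The middle 6 bases of that word, CTGCGC, called its core here, did occur in unlisted strong regions on X, at 5 of 38 (13.2%, 5.75% to 27.3%). The listed X regions had the core at 7 of 17. The longer word was chosen in these 17 regions, so their counts for its parts are in large part fixed by that choice. X regions strong in replicate 1 only had the core at 14 of 445 (3.15%, 1.88% to 5.21%) and those strong in replicate 2 only at 15 of 415 (3.61%, 2.20% to 5.88%). The unlisted interval is separate from that of replicate 1 only and overlaps that of replicate 2 only. Of 2 other 6-base parts of the word, CCTGCG stood in 4 of 38 unlisted X regions (10.5%, 4.17% to 24.1%), 8 of 17 listed ones, 2.47% of X regions strong in replicate 1 only (1.39% to 4.37%) and 3.13% of those strong in replicate 2 only. CGCGCA, read on the other strand, stood in 2 of 38 (5.26%), 8 of 17, 4.94% and 3.86%. The unlisted shares of both overlap those of the single-replicate X regions. On the autosomes the core was at 3.05% of unlisted strong regions and 2.73% of those strong in replicate 1 only. The 5 unlisted sites are shown with the core in capitals. They lie nearest to nhr-17 (chrX:12668309-12668338, plus), C41A3.2 (chrX:5429578-5429607, minus), the cyclin-dependent kinase gene cdk-11.2 (chrX:10419947-10419976, minus), the fibroblast growth factor gene egl-17 (chrX:489996-490025, minus) and the potassium channel gene twk-21 (chrX:16298309-16298338, plus). The egl-17 and twk-21 regions also lie within 200 bp of a tRNA gene.
nhr-17: gagacacgcagaCTGCGCatgaccatataa
C41A3.2: acggcgtcctccCTGCGCtaaatttaatgt
cdk-11.2: tctttcttctctCTGCGCgcaccaattgcg
egl-17: ttcaccacctccCTGCGCttattgtattct
twk-21: aatctactaccgCTGCGCctctcttattca

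The unlisted strong regions were spread over the first 3000 ranks and were rare at the head of either list. Their rank ran from 60 to 2980 in replicate 1 (median 1162) and from 68 to 2999 in replicate 2 (median 994). The listed strong regions had median ranks of 58.5 and 69. Of the unlisted regions, 11 ranked in 1 replicate within the number of IDR peaks, and none did so in both. Of them 15 stood in the top 500 of both and 53 in the top 1000 of both. Of the listed ones, 30 ranked within that number in both replicates, 65 in the top 500 of both and 75 in the top 1000 of both. The IDR peaks are the top of the list that the authors pooled over both replicates. The lower ranks and signals of the unlisted regions therefore follow in part from that split.

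**Figure D1:**
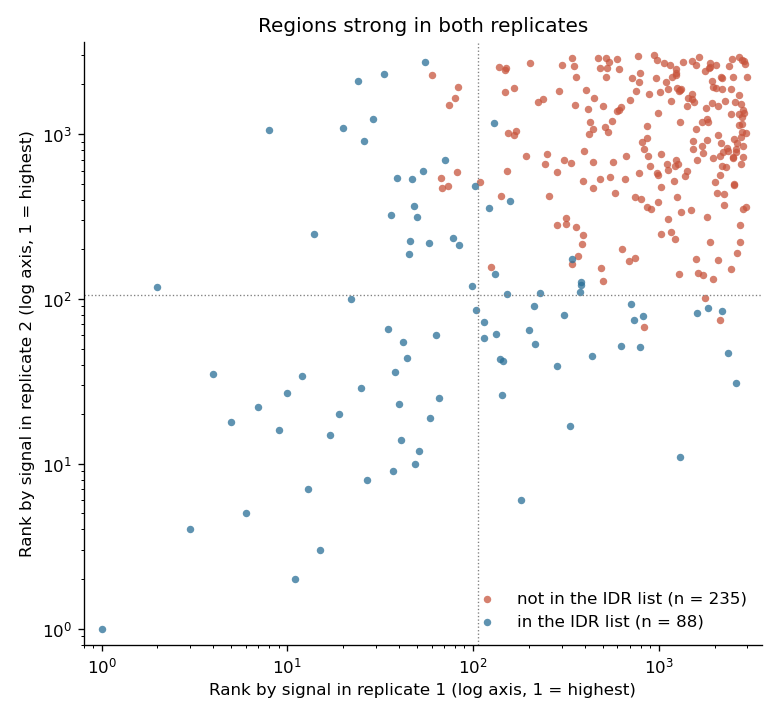
Rank in replicate 1 (horizontal, log axis) against rank in replicate 2 (vertical, log axis) for the 323 strong regions, 1 point each; dotted lines mark the rank equal to the number of IDR peaks. Unlisted regions fill the upper right, with none below the dotted line on both axes, while 30 of the 88 listed regions lie in the lower left.

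The caller's signal of the unlisted strong regions was 16.8 to 33.0 in replicate 1 (median 19.7) and 16.7 to 32.9 in replicate 2 (median 20.1). For listed strong regions the medians were 33.1 and 32.8, and over all 30000 regions 11.7 and 11.5. The highest signal in any region was 77.1 in replicate 1 and 98.7 in replicate 2. The scale of this value is not stated, so it orders regions within a list only. Column 9 of the deposited lists is the −log10 q-value in the narrowPeak layout, though no record with the lists states it. Read so, q was high for the unlisted regions. Their median −log10 q-value was 0.240 in replicate 1 and 0.299 in replicate 2, equal to q of 0.576 and 0.502, and the lowest q was 0.277 and 0.170. On that reading no unlisted region would pass a threshold of 0.05 in either replicate. Listed regions had median q of 0.276 and 0.190, with the lowest at 0.0303 and 0.0233.

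The share of replicate 1 regions with a strong replicate 2 partner fell along the list. It was 57.5% down to the rank equal to the number of IDR peaks, and 18.8% from there to rank 500. It was 10.6% between ranks 500 and 1000, 7.10% between 1000 and 2000, and 64 of 1000 between 2000 and 3000. Beyond rank 3000 a strong replicate 2 summit lay within 100 bp of 667 of 27000 regions (2.47%). The share there declined further, with 3.65% between ranks 3000 and 5000 and 1.72% between 20000 and 30000. The unlisted strong regions numbered 8, 50, 48, 68 and 61 in the 5 bins down to rank 3000. The match in the lowest of these bins (5.04% to 8.09%) was above that between ranks 3000 and 5000 (2.91% to 4.56%). Some weak regions thus have a strong partner too, and the lists do not tell which unlisted regions would be matched at that background rate.

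**Figure D2:**
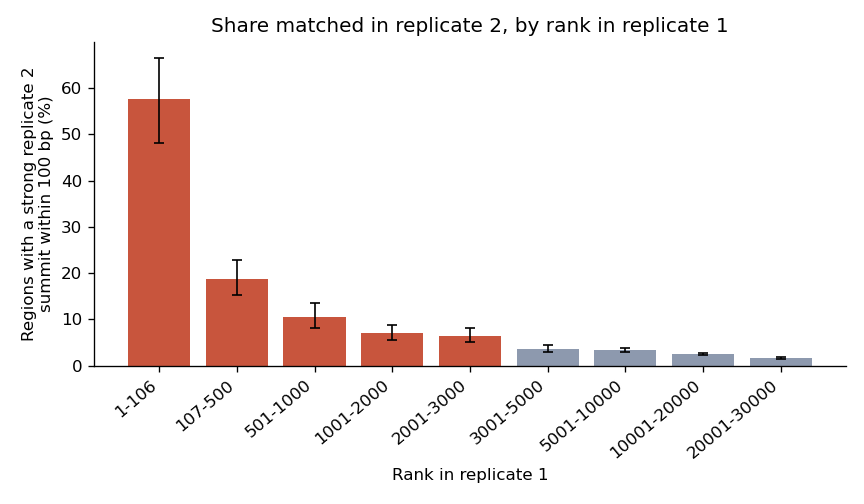
Percent of replicate 1 regions (vertical) whose summit lies within 100 bp of a replicate 2 summit of rank 1 to 3000, by rank in replicate 1 (horizontal); bars are shares with Wilson 95% intervals, red for ranks 1 to 3000 and grey for weaker ranks. The share falls from 57.5% in the strongest bin to 1.72% in the weakest.

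Strong summits of the replicates also lay closer together than the spacing further out. Of the 3000 replicate 1 regions, 323 had a strong replicate 2 summit within 100 bp and 95 had the nearest between 100 and 200 bp. Each of the 18 further bins of 100 bp, out to 2000 bp, held 16 to 41 regions (median 25.5). Without regions near an IDR peak the counts were 235, then 92, then 16 to 40 (median 24.5). Among unlisted strong regions the summits of the replicates differed by 0 to 25 bp in 104, 26 to 50 bp in 63, 51 to 75 bp in 38 and 76 to 100 bp in 30. Among listed ones these numbers were 46, 24, 13 and 5. The median separation was 29 bp for unlisted and 24 bp for listed regions, and the rule allows no separation over 100 bp. Regions are 290 bp wide in replicate 1 and 304 bp in replicate 2.

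**Figure D3:**
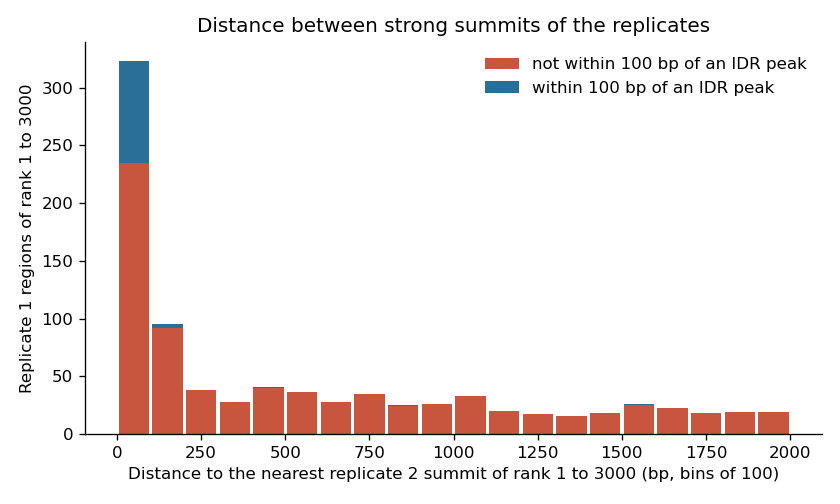
Number of replicate 1 regions of rank 1 to 3000 (vertical) by distance from their summit to the nearest replicate 2 summit of rank 1 to 3000 (horizontal, bins of 100 bp), with those not within 100 bp of an IDR peak in red and the others in blue. The bar at 0 to 100 bp holds 323 regions, of which 235 are red, and no bar beyond 200 bp exceeds 41.

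The pooled list, called by the authors on both replicates together, placed most unlisted strong regions just below the IDR peaks. The IDR peaks are the top of that list, and the unlisted regions had pooled ranks from the next one down to 2866 (median 335). Among them 167 stood in the 400 pooled regions that follow the IDR peaks and 222 in the pooled top 1000. Of the 100 pooled regions just below the IDR peaks, 64 had a strong region within 100 bp, and of the next 100, 41. Of the 200 after those it was 31.0%, of the rest down to rank 1000 it was 11.1%, of those from there to rank 3000 it was 12 of 2000, and beyond rank 3000 it was 0 of 27000. For 191 of the 235 the pooled rank was better than either single rank. The pooled list was made from the same reads, so this is not a separate measurement. The region near smg-8, a gene of nonsense-mediated decay, ranked 830 and 813 in the replicates, and the nearest pooled summit lay 126 bp away at pooled rank 261.

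In contrast, 18 IDR peaks had no region strong in both replicates with its summit within 100 bp. The peak near snr-4 is among them, though the strong region beside T11F9.15 overlaps it. For 8 of the 18 replicate 1 had no summit within 100 bp at all, and for 3 replicate 2 had none. A further 3 were matched beyond rank 3000 in replicate 1 and 4 beyond it in replicate 2. The IDR peak near rps-28 (a small ribosomal subunit gene) ranked 30 in replicate 1 and 22319 in replicate 2. All 235 unlisted regions ranked better in their weaker replicate than those 7 IDR peaks did in theirs, which follows from the rank limit.

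Coding promoters held 80 of 235 unlisted strong regions (34.0%, 28.3% to 40.3%) and 49 of 88 listed ones (55.7%, 45.3% to 65.6%). The promoter window ran 500 bp upstream and 100 bp downstream of each protein-coding transcript start. The share was 22.5% (20.98% to 24.1%) for regions strong in replicate 1 only, 22.1% for those strong in replicate 2 only and 17.4% for all replicate 1 regions. Over all chromosomes, unlisted strong regions thus lay at promoters more often than regions strong in 1 replicate and less often than listed ones, with intervals that do not overlap. On X alone the unlisted share (26.3%) was above the listed one (17.6%), with overlapping intervals. At a rank limit of 5000 the shares were 28.7% of unlisted and 55.1% of listed regions, and with summits within 50 bp 33.5% and 61.4%. In some other settings the listed share was still the higher, but its interval overlapped that of the unlisted regions. With a window of 2000 bp upstream to 500 bp downstream the shares were 65.5% (59.2% to 71.3%) for unlisted, 73.9% (63.8% to 81.9%) for listed and 56.7% (54.8% to 58.6%) for replicate 1 only regions. With 250 bp upstream to the start they were 20.9% (16.1% to 26.5%), 28.4% (20.04% to 38.6%) and 12.1% (10.9% to 13.4%). With a rank limit of 1000 they were 22 of 53 (29.3% to 54.9%), 42 of 75 (44.7% to 66.7%) and 29.01% (26.1% to 32.1%), and there the unlisted interval overlaps both of the others. Of the 80, 69 were upstream of the nearest start, and 20 lay in a window shared by 2 or more genes, against 42 and 16 of the 49 listed promoter regions. The median distance to the nearest coding start was 653 bp for unlisted, 360 bp for listed and 962 bp for replicate 1 only regions.

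The promoter share also depends on rank. Taking regions in bins of replicate 1 rank, unlisted strong regions lay at promoters in 20 of 50 against 32.8% of unmatched regions from below the IDR number to rank 500, and in 41.7% against 24.4% between 500 and 1000. Between 1000 and 2000 the shares were 32.4% and 20.02%, and between 2000 and 3000 they were 23.0% and 20.3%. The intervals were separate between 500 and 1000 (28.8% to 55.7% and 20.6% to 28.6%), barely overlapped between 1000 and 2000, and overlapped widely elsewhere. Regions chosen by rank in 1 replicate alone gave a like share. The 323 strongest of replicate 1 without regard to replicate 2, less those in the IDR list, lay at promoters in 88 of 245 (35.9%), and those of replicate 2 in 85 of 242 (35.1%).

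**Figure D4:**
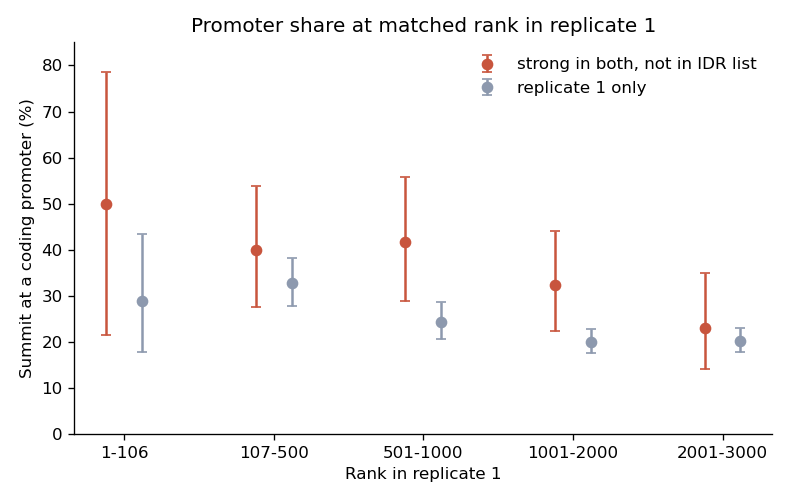
Percent of regions with the summit at a coding promoter (vertical) by rank in replicate 1 (horizontal), with Wilson 95% intervals, for unlisted regions strong in both replicates (red) and regions strong in replicate 1 only (grey). The red points stand above the grey ones in all 5 bins, with separate intervals between ranks 500 and 1000 only.

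Coding exons held 29 of 235 unlisted (12.3%, 8.73% to 17.2%) and 3 of 88 listed strong regions (3.41%, 1.17% to 9.55%), against 22.7% (21.2% to 24.3%) of regions strong in replicate 1 only and 21.7% of those strong in replicate 2 only. The unlisted share was below that of single-replicate regions, and its interval overlaps that of the listed ones. Introns held 18.3% of unlisted, 10.2% of listed and 23.9% of replicate 1 only regions, and the intervals of the unlisted and replicate 1 only regions overlap. Intergenic sequence held 28.1%, 20.5% and 25.3%, which do not differ beyond their intervals.

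**Figure D5:**
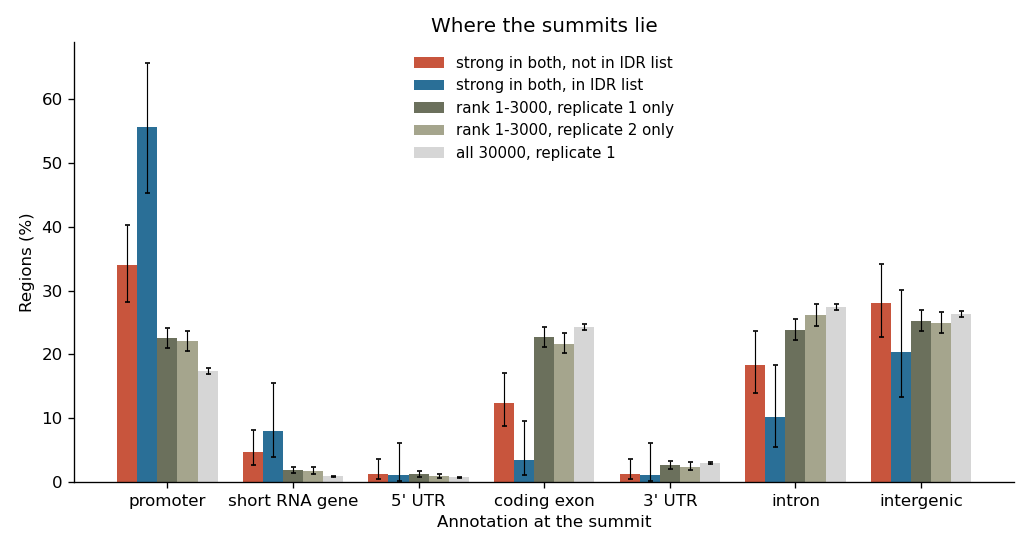
Percent of regions (vertical) by annotation at the summit (horizontal) with Wilson 95% intervals, for unlisted and listed regions strong in both replicates, regions strong in replicate 1 or replicate 2 only, and all replicate 1 regions. Unlisted regions stand between listed and single-replicate ones at promoters (34.0%, 55.7% and 22.5%) and coding exons (12.3%, 3.41% and 22.7%).

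Short RNA genes, here tRNA, snRNA, snoRNA and rRNA genes within 200 bp, lay beside 14 unlisted (5.96%, 3.58% to 9.75%) and 7 listed strong regions (7.95%, 3.91% to 15.5%). The share was 2.39% (1.88% to 3.04%) for regions strong in replicate 1 only, below both intervals, and 1.05% for all replicate 1 regions. By class, 6 unlisted regions lay at tRNA, 6 at snoRNA and 2 at snRNA genes, and among the listed 0 lay at tRNA, 2 at snoRNA and 5 at snRNA genes. The intervals of the unlisted and listed shares overlap for each class. The snRNA regions among the listed include 4 of the sls-2 genes, which encode the SL2 leader spliced onto downstream messages of operons. All 14 unlisted regions had a weaker rank of 1376 or worse, and within the top 1000 of both replicates the share was 0 of 53, which allows up to 5.66%. The best placed, beside the snRNA gene T11F9.15, ranked 598 in replicate 1 and 1376 in replicate 2. Its summit is 181 bp from that of the IDR peak near snr-4 and its region overlaps that peak, so it is unlisted by summit distance only.

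Of the unlisted strong regions 38 were on X (16.2%, 12.01% to 21.4%), and of the listed ones 17 (19.3%, 12.4% to 28.8%), against 16.6% of those strong in replicate 1 only and 17.7% of all replicate 1 regions. These shares do not differ beyond their intervals. Intergenic sequence held 12 of the 17 listed regions on X (70.6%, 46.9% to 86.7%), 16 of the 38 unlisted ones (42.1%, 27.9% to 57.8%) and 33.9% of X regions strong in replicate 1 only (29.7% to 38.5%). The intervals of the listed and the single-replicate X regions are separate, while that of the unlisted X regions overlaps both. On the autosomes the promoter share was 35.5% for unlisted, 64.8% for listed and 24.1% for replicate 1 only regions. On X it was 26.3% (15.0% to 42.0%), 17.6% (6.19% to 41.0%) and 14.8% (11.8% to 18.4%), and these intervals overlap.

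The unlisted region with the best rank in both replicates lay 548 bp upstream of nhr-17, itself a nuclear hormone receptor gene (X, 12668257 to 12668546). Its signal was 28.0 at rank 125 in replicate 1 and 27.6 at rank 156 in replicate 2, and its pooled rank was 198. The replicate 2 summit lay 77 bp from that of replicate 1 toward lower coordinates, on the side of the CTGCGC site given earlier. A second unlisted region lay 1853 bp upstream of nhr-17, at ranks 2462 and 1327. Next came ipp-5, an inositol polyphosphate 5-phosphatase gene, at ranks 284 and 281 and 893 bp upstream of the start. The tag-340 region ranked 315 and 308, and that of nud-1, related to the nuclear migration gene NudC, ranked 316 and 284. These 4 regions were intergenic and ranked nearly alike in both replicates.

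Promoter regions came next. The region 111 bp upstream of pgk-1, the phosphoglycerate kinase of glycolysis, ranked 357 and 275. That of tba-1, an alpha-tubulin, ranked 366 and 182 and lay 363 bp upstream. The eef-2 region, 12 bp inside the start of the gene for translation elongation factor 2 and in the window of clsp-1 as well, ranked 492 and 153. The ecps-1 region ranked 341 and 162, the ret-1 region 142 and 423, the klp-13 region 503 and 128 and the T13F3.8 region, which shares its window with fbxa-2, 392 and 517. At scc-2, whose product loads cohesin onto chromosomes, the region 176 bp upstream ranked 73 and 481, and at K12H4.5 the region ranked 67 and 540. At every other promoter region named in this paragraph the replicates ranked the region further apart than at pgk-1.

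Of the 20 best-placed unlisted regions, the others lay off promoters. Those of kin-1, the catalytic subunit of protein kinase A (ranks 385 and 216), dnj-20, a DnaJ co-chaperone (390 and 243), and ZK470.2 (445 and 468) were in introns. Regions nearest to trmt-10C.2 (257 and 422), F07H5.13 (68 and 474), C30E1.4 (109 and 509) and nhr-157 (481 and 536) were intergenic, at 1309, 2912, 7010 and 1549 bp from the start. In distance these 7 ranged widely, so the nearest gene is only a label. For comparison, the best-placed listed regions were those of rpl-3 (rank 1 in both), cdc-48.1, an AAA ATPase of protein quality control (3 and 4), and F19H6.5 on X (6 and 5). After them came W02H3.3 (11 and 2), gtr-1 (13 and 7), rpl-35 (15 and 3), hsr-9 with rps-19 (9 and 16), ZK899.6 (17 and 15), C34C12.1 (5 and 18) and K02D3.1 (19 and 20).

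Across all 19973 coding genes, 100 (0.501%) had an unlisted and 65 (0.325%) a listed strong region in the promoter window. Of 81 ribosomal protein genes, 3 had an unlisted one (3.70%) and 11 a listed one (13.6%), while 10 had a region strong in replicate 1 only (12.3%, against 3.33% of all coding genes) and 8 in replicate 2 only (9.88%, against 3.19%). The 3 were rps-23 (ranks 442 and 677), rpl-43 (1827 and 315) and rps-24 (2087 and 172). Those leading among the listed were rpl-35, rps-19, rpl-20 (7 and 22) and, first in both replicates, rpl-3. With the unlisted regions limited to the top 1000 of both replicates only rps-23 was left. Of 38 translation factor genes 1 had an unlisted region (2.63%), eef-2. Listed regions stood at 2 (5.26%), eef-1A.2 (51 and 12) and eef-1A.1 (36 and 322). Regions strong in replicate 1 only stood at 4 of these genes (10.5%), and those strong in replicate 2 only at 4.

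The other lists gave few members, to be read beside the 0.501% of all coding genes with an unlisted and 0.325% with a listed region. Of 28 ubiquitin system genes 2 had an unlisted region (7.14%) and none a listed one. They were ubc-9, the SUMO-conjugating enzyme (997 and 385), and ubq-2, a ubiquitin fusion gene (2784 and 961). Of 31 cytoskeleton genes the unlisted were 2 (6.45%), tba-1 and the actin gene act-2 (1226 and 230), and none was listed. Of 74 chaperone genes 1 was unlisted (1.35%), dnj-14 (80 and 1656). The listed were 3 (4.05%), hsp-90 (104 and 86), dnj-11 (311 and 80) and cct-8 (122 and 354). The proteasome, respiratory chain and histone lists had no unlisted member and 1 listed each, cdc-48.1, cox-5A (59 and 19) and his-37 (143 and 26). These were 2.78% of 36, 2.44% of 41 and 2% of 50 genes. Regions strong in replicate 1 only stood at 3 ubiquitin system, 4 cytoskeleton, 4 chaperone, 4 proteasome, 4 respiratory chain and 0 histone genes. For replicate 2 only these numbers were 3, 2, 9, 3, 4 and 0.

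For 9 of the 17 lists, with 845 genes in all, no promoter window held a strong region of either kind. They were mitochondrial ribosomal proteins, aminoacyl-tRNA synthetases, V-ATPase, splicing factors, nuclear hormone receptors, homeobox genes, neuropeptides and insulins, cuticle collagens, and dosage compensation with sex determination. Of all coding genes 0.501% had an unlisted and 0.325% a listed strong region. The 9 lists were grouped because they had none, so the absence over their 845 genes is fixed by that choice. Among the same genes 35 had a window with a region strong in replicate 1 only (4.14%, against 3.33% of all coding genes) and 36 one strong in replicate 2 only (4.26%, against 3.19%). For the 269 nuclear hormone receptor genes, 0 with an unlisted region allows a share of up to 1.12%, which is above the 0.501% of all genes, so no shortage can be read from it. By nearest start, at any distance, 6 of 235 unlisted strong regions (2.55%) were assigned to a nuclear hormone receptor gene. The share was 1.64% for regions strong in replicate 1 only and 1.66% for all replicate 1 regions, and no excess can be read from 6 regions. These 6 were both nhr-17 regions, nhr-157, nhr-35, nhr-1 and nhr-84.

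Within 20 kb of nhr-84 (V, 15876732 to 15879608, minus strand) replicate 1 had 16 regions and replicate 2 had 15 of rank 1 to 3000. Of these 2 were strong in both, near the 10.8% of all regions of these ranks, and both were unlisted. The IDR peak near T06C12.9 in this stretch, which ranked 23 and 7736, is not strong in both. The region 1913 bp upstream of nhr-84 ranked 1351 and 2746, with signals of 19.2 and 16.9. The other lay nearest to str-56, a chemoreceptor gene, and ranked 801 and 405, with signals of 20.8 and 23.1. The transgene adds a tagged copy of nhr-84 to the genome, and reads from it cannot be told apart from reads of the native locus.

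G and C made up 40.5% ± 8.67 of bases within 50 bp of the summit in unlisted strong regions (SD over 235 regions) and 45.4% ± 7.36 in listed ones (88). The value was 38.4% ± 8.17 for regions strong in replicate 1 only and 36.8% ± 8.05 for all replicate 1 regions. At promoters it was 42.2% for unlisted, 45.9% for listed and 38.8% for replicate 1 only regions. Over 50% of the bases around the summit were soft-masked in 40 unlisted (17.0%, 12.8% to 22.3%) and 3 listed strong regions (3.41%, 1.17% to 9.55%), against 15.1% of those strong in replicate 1 only, 19.6% of those strong in replicate 2 only and 20.9% of all replicate 1 regions.

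In the unlisted regions the known words of several factor families had intervals that overlap those of regions strong in replicate 1 only. AGGTCA, the nuclear receptor hexamer, lay within 100 bp of the summit of 4.26% of unlisted strong regions (2.33% to 7.65%), 10.2% of listed ones (5.47% to 18.3%), 6.28% of those strong in replicate 1 only and 5.21% of all replicate 1 regions. The related AGTTCA stood in 12.3%, 9.09%, 13.3% and 13.8%. CACGTG, the E-box read by many helix-loop-helix factors, stood in 2.98% of unlisted, 9.09% of listed and 4.26% of replicate 1 only regions. GTAAACA (forkhead) stood in 3.40%, 1.14% and 2.43%, TGACTCA (AP-1) in 2.98%, 1.14% and 2.24%, and GATAA (GATA factors) in 39.6%, 43.2% and 40.5%. Among all 2080 words of 6 bases, those with the largest ratio between unlisted strong and replicate 1 only regions, and a share of at least 8%, all held CG. AGCGCG stood in 8.94% against 3.06%, GCGCAC in 9.79% against 3.74%, CGCGCA in 9.79% against 3.96%, GCGGGA in 10.2% against 4.26% and ACGCGC in 8.09% against 3.40%. These words were picked for their difference and some overlap each other, so their shares among the unlisted regions are a description. In the listed regions, which did not choose them, CGCGCA stood in 21.6% (14.3% to 31.3%) and GCGGGA in 5.68% (2.45% to 12.6%). CGCGCA is part of CCCTGCGCGA read on the other strand, a word that the listed X regions did choose. It stood in 8 of 17 listed regions on X and in 15.5% of those on the autosomes. Among unlisted regions it stood in 2 of 38 on X and in 10.7% on the autosomes.

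Signals next to the rank limit were nearly equal on both sides of it. The last regions inside were F23C8.13 (ranks 770 and 2969), vig-1 (2980 and 2228) and Y45G5AM.9 (939 and 2999), with signals of 16.7, 16.8 and 16.7 in the weaker replicate. The first ones outside were exo-1 (252 and 3012), K10C3.4 (1049 and 3021) and T28F3.11 (2875 and 3055), with 16.7, 16.6 and 16.6.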

How the data were processed

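ChIP-seq of tagged NHR-84 was given as region lists of 2 biological replicates of whole L1 larvae. The authors deposited narrowPeak lists on ce11 and ce10: 30000 regions per replicate, 30000 for the replicates pooled, and the shorter list that passed IDR. Per the deposited file records a control alignment was a parent of each. The aligner and the caller with their settings were not given in the sources used here. Nor was the threshold of the IDR step. The deposited signal of a region is a score set by the caller, with no stated scale, and the deposited −log10 q-value is so named from the file layout alone. With no read counts, depth and the precision it gives are unknown.

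Regions were ranked by the deposited score on ce11, and tied scores kept file order. A strong region counted as listed when an IDR summit lay within 100 bp of its summit in either replicate. Summits were annotated with Ensembl 115, and sequence came from RefSeq WBcel235. Each summit got 1 class: promoter before short RNA gene, then coding or UTR exons, introns and intergenic sequence. Shares have Wilson 95% intervals, and a count of 0 allows 3 counts of the total. No test was run, because there is 1 group and the regions were selected on signal. Regions are not replicates of a condition. The matching was checked on made-up regions with planted partners. Named regions are the 20 unlisted and 10 listed ones with the best weaker rank, up to 4 genes per list, those next to the limit and those within 20 kb of nhr-84; smg-8, T11F9.15, nhr-35, nhr-1, rps-28, T06C12.9, snr-4 and the regions around the printed words were chosen after their values were seen. The rule, members, gene lists and words were chosen with earlier results of these data known. Alternatives were other rank limits, summit distances, promoter windows, each replicate alone and build ce10. Python 3.11.15, numpy 2.4.6, pandas 2.3.3, scipy 1.17.1 and matplotlib 3.10.9 were used.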

Additional observations from a re-analysis of the deposited data

How the results depend on the processing

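Over 9 results 83 alternatives were run, of which 64 moved the value by less than its interval or 1.5 times and 19 moved it further. With a rank limit of 1000 there were 128 strong regions, 53 of them unlisted. With a limit of 5000 there were 545 and 456. With summits within 25 bp, an alternative chosen after seeing the data, there were 150, of which 104 were unlisted and 46 listed. The promoter share of unlisted regions was 41.5% with the limit of 1000. A window of 2000 bp upstream to 500 bp downstream gave 65.5% for unlisted and 73.9% for listed regions, and a window of 250 bp upstream to the start gave 20.9% and 28.4%, and in these 3 settings the unlisted and listed intervals overlap. The share of unlisted regions at short RNA genes was 0% with the limit of 1000, 3.51% with 5000 and 2.13% when the summit had to lie in the gene. Ribosomal protein genes with an unlisted region numbered 1 with the limit of 1000, 1 with the narrow window and 1 with summits within 25 bp. They numbered 1 to 3 with a replicate left out. The cause of these shifts was not tested. On ce10 the rule gave 322 regions, 226 unlisted and 96 listed. No paired analysis was possible because only 1 group was studied. Leaving out a replicate gives no value for the 3 counts of strong regions, since the rule needs both. Depth is unknown, so a region weak in 1 replicate cannot be told from one missed at lower depth.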
